A study of Homo sapiens with 15 samples.

Results

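The human acute myeloid leukemia (AML) line HL-60 was compared after transduction with shRNF5, a hairpin against the E3 ubiquitin ligase RNF5, and after transduction with the empty vector pLKO. The 3 shRNF5 libraries and the 3 pLKO libraries of this line were used. Genes were kept where the normalized read count was above 0 in any of the 6 libraries, which left 12570 of 57820 gene identifiers. The study also holds the AML lines MOLM-13 and U937 with the same 2 constructs, 15 libraries in all. The sample labels date the RNA to 7 days after knockdown and name a 3′ end library kit, whereas the series design gives 5 days and the published methods describe directional libraries from poly(A)-selected RNA. The hairpin behind the HL-60 libraries is not named, and neither the labels nor the methods say that replicates were separate cultures, so p-values measure only the spread between these samples.

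RNF5 is a membrane-anchored ubiquitin ligase of the endoplasmic reticulum (ER) and takes part in ER-associated degradation (ERAD), in which misfolded proteins are marked with ubiquitin, drawn out of the ER membrane and broken down by the proteasome. HL-60 cells are leukemic cells of promyelocytic type: they make the serine proteases and myeloperoxidase of primary (azurophil) granules, carry amplified MYC, and can be driven towards granulocyte-like or monocyte-like cells. Throughout, values are normalized read counts in the order of replicates 1, 2 and 3, and fold changes are of shRNF5 against pLKO on the scale of log2(value + 1). Genes are called up or down where limma's adjusted p was below 0.1 and the log2 fold change exceeded 0.4 in size.

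RNF5, at chr6:32146182-32148570 (GRCh37, + strand), was at 506, 689 and 545 in the pLKO libraries and at 37, 133 and 43 in the shRNF5 libraries. The groups did not overlap, and the fall was 9.48-fold (log2 fold change -3.25, SE 0.39, adjusted p 0.00125 by limma). Most RNF5 transcript was left in shRNF5 replicate 2. RNF185, a close relative of RNF5 that also acts in ERAD, was at 345, 359 and 361 in pLKO and at 280, 345 and 297 in shRNF5 (log2 fold change -0.21, adjusted p 0.321 by limma) and was not called.

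Across the transcriptome, 1704 genes (13.6% of those tested) were called up and 1547 (12.3%) down, 25.9% in all. The median log2 fold change of all genes was 0.002, and that of the called genes was 0.71 for rises and -0.68 for falls. The shRNF5 libraries lay above the pLKO libraries in 19.9% of all genes and below them in 18.6%. Called rises of over 1 on the log2 scale numbered 463 (3.68%) and falls 356 (2.83%), 6.52% together, and over 2 on that scale they numbered 85 and 39. The calls leaned on single libraries: without pLKO replicate 3 they came to 1970 (8.8% of genes up, 6.87% down), without shRNF5 replicate 3 to 1991 (8.39% and 7.45%) and without pLKO replicate 1 to 2308 (9.75% and 8.62%), and 895 rises and 714 falls held whichever library was left out. Among the shRNF5 libraries, replicate 3 lay farthest from pLKO in 1163 of the genes called up and 1008 of those called down, and replicate 2, with the most RNF5 left, lay nearest in 889 and 778. Estimated depth ran from 13300000 to 21400000 counted reads per library, with replicate 1 of pLKO and replicate 3 of shRNF5 the deepest, and the part of depth in these counts was not tested.

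**Figure D1:**
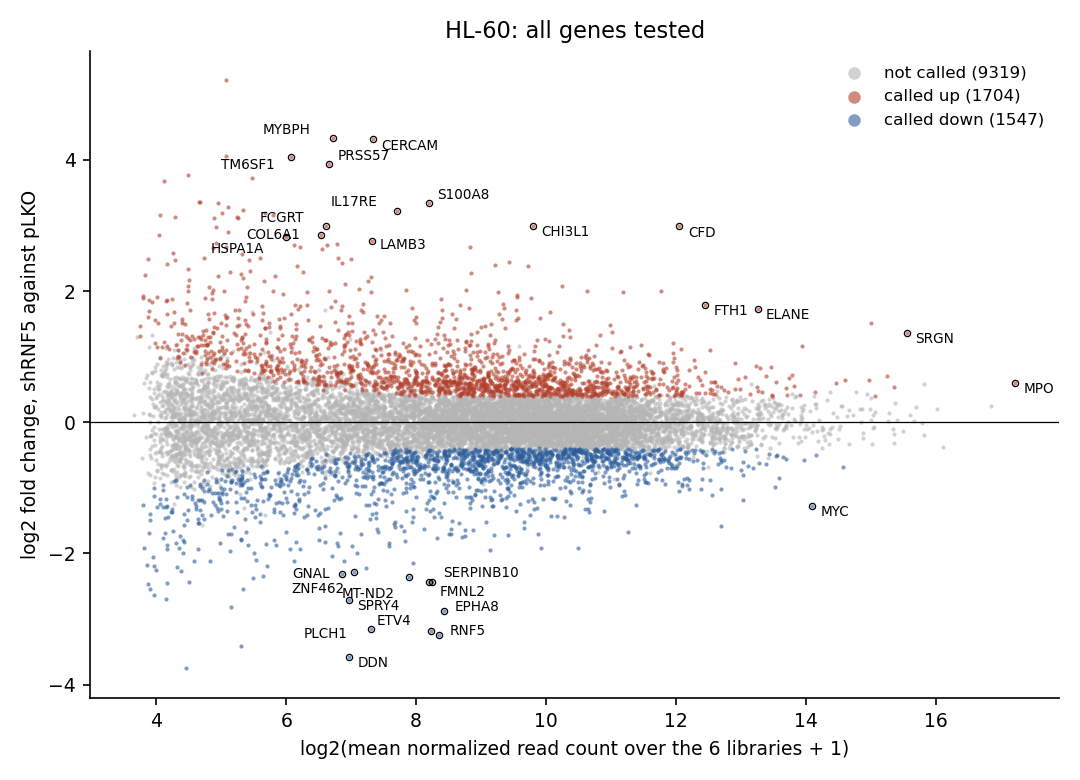
Each point is 1 gene, with its mean over the 6 libraries on the x axis (log2 scale, pseudocount 1) and its log2 fold change of shRNF5 against pLKO on the y axis. Red points are the 1704 genes called up, blue points the 1547 called down, and the granule genes MPO, SRGN, ELANE and CFD are among the called genes of high mean value, with MYC on the side of the falls.

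The largest rises among genes with separate groups and a mean of at least 100 were those of MYBPH, CERCAM and TM6SF1. MYBPH, a myosin-binding protein, was at 7, 12 and 8 in pLKO and 147, 207 and 246 in shRNF5 (log2 fold change 4.33, SE 0.30, adjusted p 8.44e-05 by limma). CERCAM, a cell adhesion protein, was at 9, 15 and 19 against 192, 308 and 420 (log2 fold change 4.31). TM6SF1 went from 13, 1 and 8 to 158, 38 and 182. Also among the 12 largest were the receptor gene IL17RE, at 32, 46 and 38 against 279, 355 and 499 (log2 fold change 3.23), FCGRT, the neonatal Fc receptor (2.99), and HSPA1A (2.83), a heat shock protein whose gene has a near-identical copy in HSPA1B, so that reads of the pair may be split between them. The largest fall was that of DDN, at 138, 275 and 282 in pLKO and 16, 21 and 16 in shRNF5 (log2 fold change -3.58, SE 0.30, adjusted p 0.000191 by limma). PLCH1, a phospholipase C, went from 290, 272 and 283 to 37, 25 and 31 (log2 fold change -3.16), and FMNL2, a formin that elongates actin filaments, from 470, 439 and 571 to 93, 99 and 79 (log2 fold change -2.43). The receptor tyrosine kinase EPHA8 (-2.89), the serpin SERPINB10 (-2.43), the G protein subunit GNAL (-2.31) and ZNF462 (-2.28) were also among the 12 largest falls.

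Genes for primary granule proteins rose. Of 18 tested members of this list 11 (61.1%) were called up and 1 (5.56%) down, with a median log2 fold change of 0.88 beside 0.002 for all genes. Without pLKO replicate 3 or without shRNF5 replicate 3 the rises came to 7. The serine proteases are made as inactive forms in the promyelocyte and stored in the granule. ELANE, neutrophil elastase, was at 4017, 5305 and 4059 in pLKO and at 15330, 10651 and 19378 in shRNF5 (log2 fold change 1.73, SE 0.21, adjusted p 0.00125 by limma). CTSG, cathepsin G, was at 1046, 1081 and 611 against 2989, 2553 and 5731 (1.99, SE 0.29, adjusted p 0.00238 by limma). PRTN3, proteinase 3, was at 10652, 10757 and 7355 against 26570, 14537 and 24548 (1.16, SE 0.23), and AZU1, azurocidin, at 2115, 1961 and 1668 against 4495, 2391 and 5688 (1.05, SE 0.26). In these 4 genes every shRNF5 library lay above every pLKO library, with replicate 2 the lowest of the shRNF5 libraries. PRSS57, a further granule serine protease, went from 9, 23 and 6 to 153, 150 and 260 (3.94, SE 0.43). CFD, the protease complement factor D, is no member of the list. It went from 490, 1254 and 996 to 4476, 5256 and 13034 (2.99, SE 0.40, adjusted p 0.00163 by limma).

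The remaining granule genes moved less evenly. SERPINB1, an inhibitor of the granule proteases, rose from 383, 229 and 175 to 1851, 670 and 1775 (log2 fold change 2.38, SE 0.37), and CD63, a granule membrane protein, rose by 0.85 on that scale. MPO, myeloperoxidase, was at 125950, 130372 and 105563 in pLKO and 205517, 141317 and 207430 in shRNF5 (0.60, SE 0.22, adjusted p 0.078 by limma). The MPO groups did not overlap, yet the call was kept only without shRNF5 replicate 2 (0.78) and was lost without pLKO replicates 1 (0.63), 2 (0.66) and 3 (0.51) and shRNF5 replicates 1 (0.51) and 3 (0.50). SRGN, the proteoglycan that packs granule contents, was at 36017, 17916 and 22541 against 92095, 29380 and 91456 (1.36, adjusted p 0.0383 by limma), with overlapping groups, and its call was lost without pLKO replicate 3 (1.31) and without shRNF5 replicate 3 (1.09). PRG2, an eosinophil granule protein, fell from 174, 107 and 143 to 79, 30 and 40 (-1.58, SE 0.34). The defensin genes DEFA1, DEFA3 and DEFA4 are listed at 0 in all 6 libraries. Whether fewer cells of a type or less RNA per cell lies behind any such difference cannot be told apart in bulk RNA.

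Genes of one cluster of granule proteases on chromosome 19 rose side by side, a pattern found after the values were seen. Between 812488 and 867884 (GRCh37) LPPR3, AZU1, PRTN3, ELANE and CFD were all called up, and PRSS57 was called up at 685546 to 695498. LPPR3 had the smallest rise (log2 fold change 0.57), and its call was lost without pLKO replicate 1 (0.46), pLKO replicate 3 (0.52) or shRNF5 replicate 3 (0.44). Their neighbours PTBP1, at 797075 to 812327, and MED16, at 867630 to 893218, were not called, with log2 fold changes of -0.37 and -0.11. FSTL3, at 676392 to 683392 beside PRSS57, was also called up (0.58, adjusted p 0.0913 by limma), and RNF126 beyond it was not (-0.03). RefSeq promoter windows (GRCh38.p14, 250 bases before to 50 after the start) of PRSS57, AZU1, PRTN3 and CFD are shown since they moved together. Capitals mark GAGGAA, a core of sites for ETS factors such as PU.1, and TTNNGNAA, a site for C/EBP factors, both sought on either strand, with no overlap between the 2 in these windows. The windows are chr19:695403-695702 on the - strand for PRSS57, and chr19:827587-827886, chr19:840749-841048 and chr19:859414-859713 on the + strand for AZU1, PRTN3 and CFD.
PRSS57: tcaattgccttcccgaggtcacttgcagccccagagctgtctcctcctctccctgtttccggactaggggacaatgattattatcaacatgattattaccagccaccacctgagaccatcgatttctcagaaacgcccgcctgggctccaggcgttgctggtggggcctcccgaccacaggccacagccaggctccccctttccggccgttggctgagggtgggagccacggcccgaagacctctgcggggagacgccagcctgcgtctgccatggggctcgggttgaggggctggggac
AZU1: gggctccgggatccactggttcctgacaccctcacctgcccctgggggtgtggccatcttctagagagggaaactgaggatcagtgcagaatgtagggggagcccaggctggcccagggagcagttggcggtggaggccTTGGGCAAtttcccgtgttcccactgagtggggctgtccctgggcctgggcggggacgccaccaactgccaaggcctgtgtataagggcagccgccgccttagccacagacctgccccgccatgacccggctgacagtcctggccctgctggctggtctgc
PRTN3: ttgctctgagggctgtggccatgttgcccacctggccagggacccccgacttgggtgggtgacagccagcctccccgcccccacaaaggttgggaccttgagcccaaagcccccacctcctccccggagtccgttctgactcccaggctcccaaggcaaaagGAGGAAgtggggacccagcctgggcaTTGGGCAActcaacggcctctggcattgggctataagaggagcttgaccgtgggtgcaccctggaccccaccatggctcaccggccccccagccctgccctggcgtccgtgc
CFD: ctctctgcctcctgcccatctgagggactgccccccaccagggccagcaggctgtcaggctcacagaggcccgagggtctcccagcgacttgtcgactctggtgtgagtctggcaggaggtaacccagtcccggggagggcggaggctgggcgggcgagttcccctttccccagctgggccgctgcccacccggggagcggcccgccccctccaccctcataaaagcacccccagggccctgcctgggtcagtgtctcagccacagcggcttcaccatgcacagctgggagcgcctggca
AZU1 held TTNNGNAA with its first base 111 bases before the start. PRTN3 held GAGGAA and TTNNGNAA with first bases 88 and 62 bases before the start, and the windows of PRSS57 and CFD held neither string of letters. Of the promoters of 8646 tested genes 27.1% held GAGGAA and 25.9% TTNNGNAA, and among genes called up the shares were 27.2% and 27.3%, both near the shares of all promoters.

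Genes of later neutrophil maturation were called up in 7 of 13 tested members (53.8%) and down in 1, with a median log2 fold change of 1.41. CHI3L1, a secreted chitinase-like protein of specific granules, went from 241, 199 and 155 to 1502, 1729 and 1486 (log2 fold change 3.0, SE 0.17, adjusted p 3.34e-05 by limma), with groups far apart. HP, haptoglobin, was at 5, 4 and 6 against 73, 52 and 121 (3.72), and SLPI, a protease inhibitor, at 15, 16 and 4 against 64, 52 and 82 (2.57). The rises did not extend to the whole list, of which 22 members are listed at 0 in HL-60, lactotransferrin (LTF), lipocalin 2 (LCN2) and cathelicidin (CAMP) among them. CSF3R, the G-CSF receptor, was at 742, 851 and 882 against 875, 482 and 744 and was not called (-0.28, adjusted p 0.351 by limma). ITGAM, the integrin chain CD11b that marks myeloid maturation, was at 105, 57 and 82 against 112, 70 and 260 and was not called either (0.68, adjusted p 0.265 by limma).

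Of the monocyte and macrophage genes 7 of 16 (43.8%) were called up and 1 down (median log2 fold change 0.57). CD86, a costimulatory molecule, was at 150, 116 and 128 in pLKO and 199, 298 and 329 in shRNF5 (log2 fold change 1.04, SE 0.21, adjusted p 0.00939 by limma), with no overlap. FCGR2A, an activating receptor for IgG, was at 152, 166 and 172 against 384, 268 and 362 (1.03), and THBS1, thrombospondin, at 5, 4 and 12 against 94, 61 and 44 (3.14). CD14, the lipopolysaccharide coreceptor of monocytes, is listed at 0 in all 6 libraries.

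Calcium-binding S100 proteins, annexins and galectins were called up in 9 of 20 members (45.0%) and down in 2. The falls came to 0 without pLKO replicate 2 and to 1 without pLKO replicate 3, shRNF5 replicate 1 or shRNF5 replicate 3. S100A4 was at 1093, 1757 and 1204 in pLKO and at 3974, 4456 and 8390 in shRNF5 (log2 fold change 2.0, SE 0.26, adjusted p 0.00157 by limma). S100A8, one chain of calprotectin, was at 77, 27 and 39 against 359, 257 and 992 (3.35, SE 0.47), and S100A6 rose by 1.46. LGALS1, galectin 1, went from 181, 153 and 134 to 805, 601 and 880 (2.27, SE 0.18, adjusted p 0.000129 by limma), and ANXA2 rose by 1.56. All of these had separate groups. Adhesion genes belong with them: 12 of 20 leukocyte integrins and adhesion molecules (60.0%) were called up and 0 down, with a median log2 fold change of 0.60. ITGB2, the beta chain shared by the leukocyte integrins, was at 1787, 2552 and 2047 against 3197, 3674 and 4472 (0.83, SE 0.16, adjusted p 0.0076 by limma). ITGB7 (1.75), CD99 (1.16), the integrin activator FERMT3 (0.78), ITGA6 (0.71), ITGA5 (0.68) and the sialomucin SPN (0.55) also rose.

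NADPH oxidase is the membrane enzyme with which phagocytes make superoxide, built from the chains CYBA and CYBB and from cytosolic subunits. Of its 10 tested genes 7 (70.0%) were called up and 1 down (median log2 fold change 0.86). CYBA was between 919 and 1331 in pLKO and at 2087, 2096 and 3074 in shRNF5 (log2 fold change 1.18, SE 0.19, adjusted p 0.00345 by limma), with separate groups. NCF1 and its near copies NCF1B and NCF1C share sequence, so their rises are not independent counts. CYBB went the other way, at 2583, 1606 and 1832 against 1736, 1248 and 1274 (-0.49, adjusted p 0.0927 by limma). Its groups overlapped, and the call was lost without pLKO replicate 1 (-0.29), pLKO replicate 3 (-0.54), shRNF5 replicate 2 (-0.40) or shRNF5 replicate 3 (-0.42).

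Antioxidant and NRF2 target genes were called up in 10 of 33 members (30.3%) and down in 3. The rises numbered 6 without pLKO replicate 3 and 5 without shRNF5 replicate 3, and the falls 1 without either of these or without pLKO replicate 1. HMOX1, heme oxygenase, was at 11, 3 and 4 in pLKO and 47, 58 and 77 in shRNF5 (log2 fold change 3.28, SE 0.45). ME1, the NADPH-yielding malic enzyme, went from 468, 238 and 346 to 941, 957 and 1500 (1.71, SE 0.25, adjusted p 0.00232 by limma), and NQO1, a quinone reductase, from 522, 343 and 392 to 675, 1143 and 1031 (1.17, SE 0.21). The groups were separate in all 3. NFE2L2, which codes for NRF2 itself, was at 1667, 2009 and 1738 against 1599, 1799 and 1980 (-0.01) and was not called. The iron storage gene FTH1, ferritin heavy chain, rose from 2513, 2586 and 2208 to 6711, 7234 and 12358 (1.79, SE 0.20, adjusted p 0.00117 by limma). The iron importer SLC39A14 fell from 919, 914 and 995 to 369, 506 and 301 (-1.30, SE 0.18), and the heme exporter FLVCR1 fell by 0.81. In the iron and heme list as a whole 6 of 26 members were called up (23.1%) and 3 down (11.5%).

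Many lysosomal hydrolases rose: 17 of 34 hydrolases (50%) were called up and 2 down, against 5 of 29 membrane and transport proteins up and 0 down, with median log2 fold changes of 0.44 and 0.15. The difference between the 2 groups was not tested. CTSZ, cathepsin Z, was at 164, 195 and 174 in pLKO and 941, 589 and 1512 in shRNF5 (log2 fold change 2.40, SE 0.27, adjusted p 0.00117 by limma). CTSD, cathepsin D, was at 1215, 1106 and 835 against 2809, 2234 and 3912 (1.48, SE 0.20), and SMPD1, acid sphingomyelinase, at 28, 55 and 46 against 160, 126 and 294 (2.10). FUCA1 (1.49) and NAGLU (1.26), which remove sugars from glycoproteins and glycolipids, rose with them, both with separate groups. GM2A, a cofactor of ganglioside breakdown, fell from 2261, 2492 and 2545 to 1652, 1553 and 1280 (-0.71). TFE3, a transcription factor of lysosomal genes, rose from 204, 216 and 205 to 337, 394 and 454 (0.91, SE 0.16). LAMP1 was not called, at 1655, 1622 and 1440 against 1492, 1289 and 1532 (-0.13). Autophagy genes were called up in 9 of 33 (27.3%) and down in 0, and up in 5 without pLKO replicate 1. The cargo receptor SQSTM1 went from 1846, 1806 and 1668 to 2961, 2830 and 3891 (0.85, SE 0.14), and GABARAPL1 rose by 1.32.

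Genes of lipid uptake were called in both directions. Of 8 receptors and adaptors 4 were called up and 2 down, and of 19 lipid handling genes 8 up and 3 down, with 5 up without pLKO replicate 3 or shRNF5 replicate 3. TREM2, a lipid-sensing receptor of macrophages, was at 3, 0 and 0 in pLKO and at 55, 34 and 104 in shRNF5, and since 2 pLKO libraries are at 0 its fitted log2 fold change of 5.22 depends on the pseudocount. Its signalling adaptor TYROBP rose from 255, 289 and 244 to 577, 524 and 1047 (log2 fold change 1.38, SE 0.23, adjusted p 0.00445 by limma), and the related adaptor HCST by 0.93. LPL, lipoprotein lipase, fell from 1471, 1391 and 1754 to 403, 448 and 368 (-1.92, SE 0.14, adjusted p 8.44e-05 by limma), and the lipoprotein receptor SCARB1 fell from 1994, 1942 and 1812 to 1109, 1173 and 1138 (-0.75). In the list as a whole 12 of 27 members (44.4%) were called up and 5 (18.5%) down. The falls came to 3 without pLKO replicate 1 or shRNF5 replicate 2. APOE is listed at 0.

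The main transcription factors of the promyelocyte were not called. CEBPA was at 609, 1131 and 971 in pLKO and 1046, 1037 and 947 in shRNF5 (log2 fold change 0.21), SPI1 (PU.1) at 1621, 1947 and 1462 against 1509, 1600 and 1776 (-0.04), and GFI1 at 3388, 3655 and 3707 against 3794, 3654 and 3949 (0.08). CEBPE (0.11), RUNX1 (-0.19) and MYB (-0.39, adjusted p 0.051 by limma) were not called either. IRF5, an activator of inflammatory genes in macrophages, rose from 239, 382 and 357 to 554, 627 and 761 (1.00, SE 0.20, adjusted p 0.00751 by limma), and ID2, an inhibitor of basic helix-loop-helix factors, from 478, 534 and 512 to 712, 945 and 1280 (0.91). EGR1, an immediate early factor, fell from 69, 76 and 68 to 21, 23 and 10 (-2.0, SE 0.33), and the vitamin D receptor gene VDR fell by 0.68. Over the 47 myeloid transcription factors tested, 10 (21.3%) were called up and 7 (14.9%) down. The rises came to 6 without pLKO replicate 1 or pLKO replicate 3 and to 4 without shRNF5 replicate 3, and the falls to 4 without pLKO replicate 3 and 3 without shRNF5 replicate 3.

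**Figure D2:**
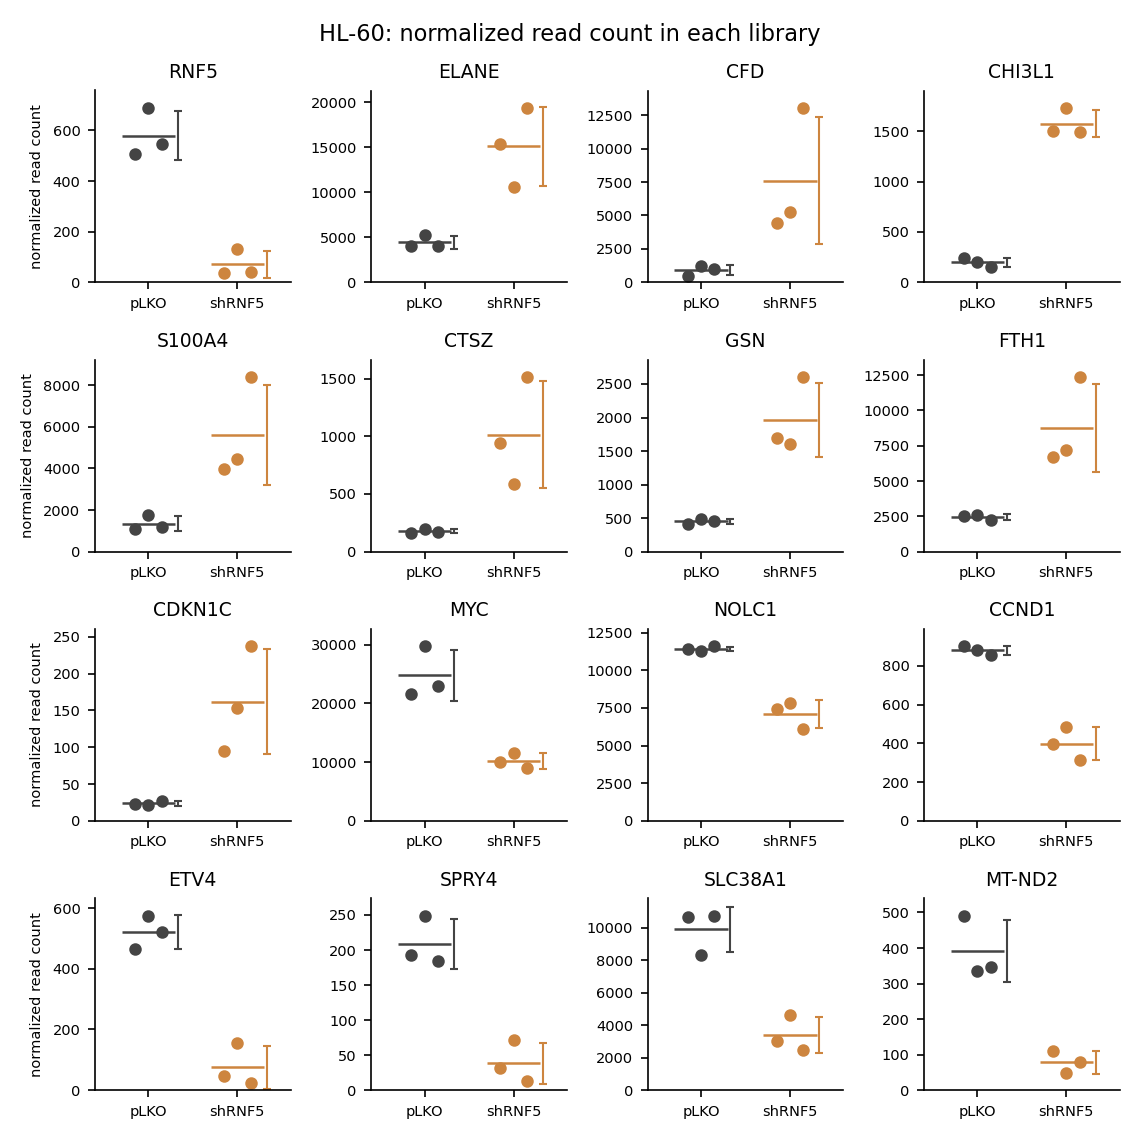
Normalized read count (y axis, linear from 0) of 16 genes in each HL-60 library, with pLKO on the left and shRNF5 on the right of each panel. Points are the 3 libraries per group in the order of replicates, lines their mean and bars 1 SD on either side of it. No panel shows overlap between the groups, and shRNF5 replicate 3 is the highest point for CFD, at 13034, and for FTH1, at 12358.

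Genes that ERK signalling switches on, many of which feed back to restrain it, fell in HL-60. This list was written after the values were seen, so its count is a description. Of 17 tested members 0 were called up and 10 (58.8%) down, with a median log2 fold change of -0.93. The Sprouty and Spred proteins block the route from receptor tyrosine kinases to RAS and ERK. SPRY4 went from 193, 249 and 184 in pLKO to 31, 71 and 13 in shRNF5 (log2 fold change -2.71, SE 0.47, adjusted p 0.00473 by limma), SPRY1 from 406, 479 and 381 to 184, 203 and 185 (-1.14), and SPRED1 from 698, 674 and 938 to 378, 435 and 246 (-1.15). The ETS factors ETV4 and ETV5 went from 465, 575 and 522 to 46, 156 and 24 (-3.19, SE 0.50) and from 554, 551 and 536 to 196, 243 and 97 (-1.71, SE 0.28). In SPRY4, ETV4 and ETV5 the shRNF5 library with the most RNF5 left, replicate 2, lay highest of its group. A link to the amount of RNF5 left was not tested. CCND1, cyclin D1, fell from 900, 880 and 858 to 398, 483 and 313 (-1.16, SE 0.16, adjusted p 0.00199 by limma). The phosphatase gene DUSP6 was at 1122, 1595 and 1386 against 822, 1414 and 638 (-0.58, adjusted p 0.125 by limma) and FOS at 26, 39 and 17 against 25, 35 and 25 (0.11), and neither was called.

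Ribosome biogenesis genes fell in part. Of 50 nucleolar factors tested, 0 were called up and 19 (38.0%) down, with a median log2 fold change of -0.34. NOLC1, a nucleolar phosphoprotein, was at 11420, 11303 and 11575 in pLKO and 7438, 7841 and 6075 in shRNF5 (log2 fold change -0.69, SE 0.13, adjusted p 0.00662 by limma). POLR1A, the large subunit of RNA polymerase I, was at 4721, 3188 and 4005 against 2419, 2226 and 1639 (-0.92, SE 0.18). UTP20 and EBNA1BP2, processing factors of pre-ribosomal RNA, were at 4644, 2798 and 4133 against 2515, 2100 and 1551 (-0.90) and at 2894, 3539 and 2559 against 1341, 1983 and 1699 (-0.84), and MYBBP1A was at 1825, 2027 and 1592 against 1201, 1291 and 977 (-0.65). All 5 had separate groups. The abundant nucleolar genes NPM1, at 51775, 61395 and 56798 against 47186, 62251 and 60171 (-0.01), NCL (-0.19) and FBL (-0.13) were not called.

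Promoter windows (RefSeq, GRCh38.p14, 250 bases before to 50 after the start) are shown for 3 of these falling genes because the E-box CACGTG, to which MYC and other basic helix-loop-helix factors bind, occurred in each. Capitals mark CACGTG, which reads the same on both strands. The windows are chr12:101279855-101280154 (+ strand) for UTP20, chr1:43172521-43172820 (- strand) for EBNA1BP2 and chr17:4555335-4555634 (- strand) for MYBBP1A.
UTP20: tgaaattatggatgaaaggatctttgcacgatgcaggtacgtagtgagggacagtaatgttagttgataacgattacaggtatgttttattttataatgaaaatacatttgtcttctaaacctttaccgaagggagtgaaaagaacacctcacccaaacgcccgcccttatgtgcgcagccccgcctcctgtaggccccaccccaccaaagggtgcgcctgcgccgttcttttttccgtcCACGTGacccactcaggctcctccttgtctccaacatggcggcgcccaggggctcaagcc
EBNA1BP2: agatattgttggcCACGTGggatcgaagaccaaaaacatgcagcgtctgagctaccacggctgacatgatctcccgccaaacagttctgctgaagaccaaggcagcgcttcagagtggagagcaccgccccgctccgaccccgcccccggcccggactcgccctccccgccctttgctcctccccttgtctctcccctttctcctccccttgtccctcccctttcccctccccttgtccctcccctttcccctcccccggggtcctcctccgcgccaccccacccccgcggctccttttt
MYBBP1A: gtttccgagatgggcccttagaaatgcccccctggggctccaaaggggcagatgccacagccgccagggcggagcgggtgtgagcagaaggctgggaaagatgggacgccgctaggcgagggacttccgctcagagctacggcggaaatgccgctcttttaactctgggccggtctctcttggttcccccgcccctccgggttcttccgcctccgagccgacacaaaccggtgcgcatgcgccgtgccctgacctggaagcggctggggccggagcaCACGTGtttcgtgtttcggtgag
The first base of CACGTG lay 10 bases before the start of UTP20, 237 before that of EBNA1BP2 and at base 28 from the start of MYBBP1A. Of all promoters of tested genes 10.7% held CACGTG. The share was 13.9% among genes called down and 7.25% among genes called up. Within the ribosome biogenesis and MYC network list 20 of 52 members with a promoter window (38.5%) held it, and of the 14 called down with a window 9 did. A match is a string of letters and not a measured binding site.

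Cytosolic ribosomal protein genes, for comparison, were called up in 4 of 82 (4.88%) and down in 8 (9.76%), with a median log2 fold change of 0.0. These counts moved with the library left out, the rises between 1 without shRNF5 replicate 3 and 14 without shRNF5 replicate 1, and the falls between 4 and 11. Under correction for transcript length the falls numbered 14. RPL23 fell from 15212, 17754 and 14344 to 8282, 9231 and 8627 (log2 fold change -0.85, SE 0.13, adjusted p 0.00306 by limma), with separate groups.

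MYC was at 21613, 29696 and 23014 in the pLKO libraries and at 10002, 11565 and 8948 in the shRNF5 libraries. The groups were well apart, and the fall was 2.43-fold (log2 fold change -1.28, SE 0.16, adjusted p 0.00134 by limma). MXD3, which competes with MYC for the partner MAX, rose from 280, 281 and 244 to 586, 497 and 862 (1.23, SE 0.20), and MAX was not called (-0.15). The neighbours of MYC also fell, as was seen on inspection of the values. Along chromosome 8, from 126442600 to 130696016 (GRCh37), the 6 consecutive tested genes TRIB1, FAM84B, CASC11, MYC, PVT1 and CCDC26 were all called down. TRIB1, a pseudokinase that promotes the breakdown of C/EBP factors, was at 4326, 5840 and 5043 against 2934, 3688 and 2931 (-0.67, SE 0.15), and the long noncoding RNA CCDC26 at 65, 81 and 74 against 21, 12 and 9 (-2.38, SE 0.34). The genes on either side, NSMCE2 (-0.04) and FAM49B (0.05), were not called. The calls of FAM84B, CASC11 and PVT1 rested on single libraries, and without shRNF5 replicate 3 all 3 were lost, at -0.90, -0.94 and -0.48. CASC11 overlaps MYC on the opposite strand. DNA copy number, which is raised at MYC in HL-60, was not measured, and its part in these falls was not tested.

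Inhibitors of cyclin-dependent kinases (CDKs) rose. Of 8 CDK inhibitors tested 7 (87.5%) were called up and 0 down, with a median log2 fold change of 1.31. CDKN1C (p57) went from 23, 21 and 27 to 95, 154 and 237 (log2 fold change 2.63, SE 0.32, adjusted p 0.00125 by limma), CDKN2B (p15) from 25, 28 and 16 to 65, 61 and 99 (1.67), CDKN2C (p18) from 778, 1082 and 842 to 1624, 1559 and 2017 (0.95), and CDKN1B (p27) from 885, 1257 and 1092 to 1810, 1720 and 2191 (0.83). These 4 genes had separate groups. Of 17 cyclins, CDKs, pocket proteins and related genes 5 (29.4%) were called up and 3 (17.6%) down, with 3 up without pLKO replicate 1. The transcription factor gene E2F5 was among the falls. CCND2, cyclin D2, fell from 4804, 5327 and 6215 to 2725, 3566 and 2465 (-0.91, SE 0.16) and CCND3 rose by 0.77. Of 53 DNA replication genes 6 (11.3%) were called up and 3 (5.66%) down, and of 56 mitosis genes 8 (14.3%) up and 0 down, with medians of -0.07 and 0.15. The share of rises among mitosis genes was close to the 13.6% of all genes. The replication falls came to 5 without shRNF5 replicate 1 or shRNF5 replicate 2, and the mitosis falls to 2 without shRNF5 replicate 1. CCNE2, cyclin E2, rose by 1.16 and CCNE1 fell by 0.70, while the dUTPase gene DUT fell from 4995, 6371 and 5866 to 2434, 4204 and 2428 (-0.97).

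Of 16 BCL2 family genes tested 3 (18.8%) were called up and 2 (12.5%) down, beside 13.6% and 12.3% of all genes. The rises came to 2 without pLKO replicate 1, pLKO replicate 3, shRNF5 replicate 2 or shRNF5 replicate 3. BMF, a pro-apoptotic BH3-only protein, rose from 233, 488 and 432 to 865, 1318 and 1115 (log2 fold change 1.56, SE 0.26, adjusted p 0.00389 by limma), and PMAIP1 (NOXA) rose by 0.67. BCL2, the anti-apoptotic founder of the family, fell from 2694, 2199 and 3257 to 1876, 1655 and 1380 (-0.72, SE 0.16), with no overlap. MCL1 was not called, at 15364, 13789 and 14683 against 18073, 17721 and 16645 (0.26). Targets of p53 were called up in 7 of 26 (26.9%) and down in 3 (11.5%), with a median of 0.01. HL-60 cells lack p53, and what lies behind these calls was not tested.

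Many ER folding genes rose. Of 25 chaperones and folding enzymes 13 (52.0%) were called up and 1 down (median log2 fold change 0.54), and 8 up without pLKO replicate 3. Of 7 sensors and factors of the unfolded protein response 1 (14.3%) was called up and 0 down, close to the share of rises in all genes, and the difference between the 2 groups was not tested. CRELD2, an ER chaperone-like protein, was at 366, 390 and 347 in pLKO and 936, 870 and 1652 in shRNF5 (log2 fold change 1.59, SE 0.22, adjusted p 0.00178 by limma). PDIA6, a disulfide isomerase, was at 8255, 8227 and 7575 against 15147, 11149 and 17709 (0.85), and SPCS2, of the signal peptidase, at 797, 824 and 792 against 1224, 1415 and 1706 (0.83). HSPA5 (BiP), the main ER chaperone, was at 15841, 17426 and 12872 against 18409, 19628 and 22481. Its groups did not overlap, and at 0.40 with an adjusted p of 0.0926 by limma it lay at the threshold and was not called. ERO1L, the oxidase that drives disulfide formation, fell from 3263, 2675 and 3557 to 1962, 1427 and 1242 (-1.05, SE 0.17). In the ERAD pathway to which RNF5 belongs, 6 of 35 members (17.1%) were called up and 3 (8.57%) down, close to the 13.6% and 12.3% of all genes. The falls included RNF5 itself and came to 1 without shRNF5 replicate 3. ERLIN1, which presents substrates in the ER membrane, rose from 3074, 2954 and 2958 to 6199, 3915 and 5858 (0.80), the lectin OS9 rose by 0.76 and HERPUD1 by 0.64.

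Several amino acid supply genes under ATF4 fell. Of 25 synthesis and transport genes 1 was called up and 8 (32.0%) down. SLC38A1, a neutral amino acid transporter, went from 10632, 8295 and 10737 to 3013, 4628 and 2488 (log2 fold change -1.59, SE 0.21, adjusted p 0.00157 by limma), and SLC7A5, the leucine transporter LAT1, from 3870, 4005 and 3418 to 1484, 1787 and 1439 (-1.26, SE 0.13, adjusted p 0.000616 by limma). PYCR1 (-0.94), ASNS (-0.64) and PSAT1 (-0.54), which make proline, asparagine and serine, fell as well. ATF4 itself was not called, at 5995, 7542 and 5633 against 5502, 7124 and 8505 (0.13). DDIT3 (CHOP) rose from 128, 181 and 134 to 251, 242 and 364 (0.94) and PPP1R15A (GADD34) by 0.84, whereas TRIB3 fell by 0.70.

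Most fatty acid synthesis genes fell. Of 9 fatty acid synthesis genes 6 (66.7%) were called down and 1 up (median log2 fold change -0.78). ACLY, which makes cytosolic acetyl-CoA, went from 5793, 6597 and 6548 to 3342, 3564 and 2510 (log2 fold change -1.02, SE 0.15, adjusted p 0.00218 by limma), ELOVL6, a fatty acid elongase, from 692, 1223 and 1388 to 455, 523 and 368 (-1.25), and FASN, fatty acid synthase, from 12427, 12671 and 14026 to 9964, 7161 and 8258 (-0.64). All 3 had separate groups. Of 20 cholesterol synthesis genes 6 (30.0%) were called down, 1 up and 13 in neither direction, with a median of -0.10. The falls came to 4 without pLKO replicate 2 or pLKO replicate 3, and the median to 0.03 without shRNF5 replicate 2. HMGCS1, an early enzyme of the route, fell from 7235, 9083 and 10394 to 4531, 4671 and 3945 (-1.01, SE 0.15), and DHCR7, the last, fell by 1.03.

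Transcripts of mitochondrial DNA fell. The list of mitochondrial DNA genes was written after the values were seen. Of its 15 members 0 were called up and 11 (73.3%) down, with a median log2 fold change of -1.32. MT-ND2, a complex I subunit, was at 491, 336 and 347 in pLKO and at 111, 47 and 78 in shRNF5 (log2 fold change -2.36, SE 0.29, adjusted p 0.00125 by limma). MT-CYB, of complex III, was at 481, 358 and 350 against 145, 46 and 100 (-2.15), and MT-CO1, of complex IV, at 1016, 872 and 862 against 626, 269 and 429 (-1.13). The groups were separate, and shRNF5 replicate 2, the library with the most RNF5 left, was the lowest in all 3 genes. The ribosomal RNAs MT-RNR1 (-0.71, adjusted p 0.124 by limma) and MT-RNR2 (-0.32, adjusted p 0.146 by limma) were not called. Reads from nuclear copies of mitochondrial DNA cannot be set apart in these values. Of 78 nuclear subunits 15 (19.2%) were called up and 4 (5.13%) down, with a median of 0.18. Their rises came to 8 without pLKO replicate 1, 6 without pLKO replicate 3 and 5 without shRNF5 replicate 3, where the falls also numbered 5, and the falls came to 7 under correction for transcript length. ATP5H, of ATP synthase, rose from 1827, 2254 and 1918 to 3132, 3807 and 5543 (1.02, SE 0.19), and ATP5J2 fell from 960, 1003 and 868 to 596, 529 and 556 (-0.75, SE 0.12).

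**Figure D3:**
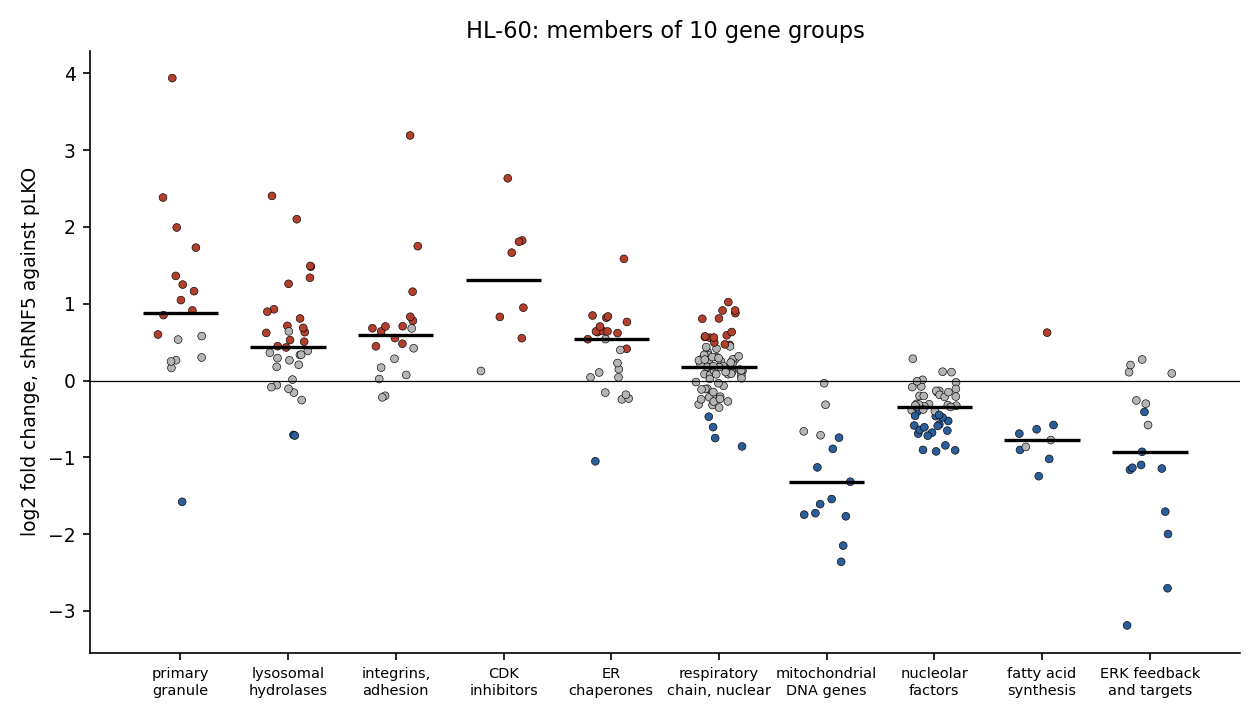
Log2 fold change of shRNF5 against pLKO (y axis) for every tested member of 10 gene groups, 1 point per gene. Red points were called up, blue points down and grey points not called, and the black line is the median of the group. Medians run from 1.31 for the CDK inhibitors to -1.32 for the mitochondrial DNA genes, and the nuclear respiratory chain genes lie around 0.18.

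Immune signalling genes moved in both directions. Interferon-stimulated genes were called up in 10 of 35 (28.6%) and down in 1. LGALS3BP, a secreted glycoprotein, went from 69, 166 and 140 to 507, 852 and 989 (log2 fold change 2.67, SE 0.32, adjusted p 0.00125 by limma), and SOCS1, a brake on cytokine signalling, from 7, 15 and 4 to 38, 52 and 80 (2.68). HLA-C rose from 1984, 3197 and 2821 to 4710, 3814 and 7548 (0.97), while TAP2, of the peptide transporter, fell from 1284, 1060 and 1297 to 778, 603 and 714 (-0.80). Of 28 NF-kappaB subunits and targets 9 (32.1%) were called up and 4 (14.3%) down, with a median of -0.01. The falls came to 2 without pLKO replicate 1 or shRNF5 replicate 3, and to 1 without pLKO replicate 3. NFKBIA, the inhibitor IkappaB-alpha, rose from 313, 532 and 389 to 592, 797 and 1108 (1.00), and the chemokine CCL2 fell from 526, 1023 and 1067 to 136, 470 and 155 (-1.95, SE 0.42). MYD88, the adaptor of Toll-like receptors, rose from 282, 336 and 334 to 674, 614 and 705 (1.07, SE 0.14, adjusted p 0.00157 by limma).

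Receptor genes for chemoattractants fell in part, with 6 of 11 (54.5%) called down and 1 up. The falls came to 4 without pLKO replicate 1, shRNF5 replicate 2 or shRNF5 replicate 3, and to 7 without shRNF5 replicate 1. C3AR1, the receptor of complement C3a, went from 258, 207 and 286 to 132, 71 and 53 (log2 fold change -1.63, SE 0.30, adjusted p 0.006 by limma), and LTB4R, for leukotriene B4, from 641, 537 and 519 to 341, 296 and 292 (-0.86). PTAFR, for platelet-activating factor, rose from 66, 35 and 31 to 218, 74 and 219 (1.85, SE 0.42). Cytokine receptors were called up in 7 of 27 (25.9%) and down in 2. KIT, the stem cell factor receptor, rose from 756, 1194 and 1151 to 2054, 2395 and 2065 (1.1, SE 0.17) and IL13RA1 from 168, 134 and 208 to 473, 424 and 573 (1.53), and CSF2RB, the common beta chain, fell from 726, 863 and 963 to 537, 477 and 611 (-0.65).

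Many genes of the actin cytoskeleton rose. Of 77 genes of actin and its regulators 24 (31.2%) were called up and 1 (1.3%) down. GSN, gelsolin, which severs and caps filaments, went from 415, 491 and 461 to 1691, 1601 and 2601 (log2 fold change 2.07, SE 0.18, adjusted p 0.000225 by limma), and CAPG, a capping protein, from 747, 764 and 629 to 1832, 1750 and 2110 (1.41, SE 0.13, adjusted p 0.000353 by limma). ARPC3, of the Arp2/3 complex, rose from 1733, 1949 and 1535 to 3742, 3623 and 4422 (1.18), and MYL6 and CFL2 rose by 1.12 each. Genes of laminins, collagens and collagen-modifying enzymes were called up in 9 of 18 (50%) and down in 0. LAMB3 went from 28, 35 and 52 to 179, 227 and 427 (2.77, SE 0.33) and COL4A2, of basement membrane collagen, from 11, 10 and 8 to 111, 57 and 129 (3.16).

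The counts of further lists are set beside the shares of all genes, 13.6% up and 12.3% down. Proteasome genes were called up in 3 of 45 (6.67%) and down in 4 (8.89%), and mitochondrial ribosomal proteins up in 3 of 74 (4.05%) and down in 9 (12.2%). Histone deacetylases and repressor complexes were called up in 4 of 37 (10.8%) and down in 5 (13.5%), and nucleotide excision repair genes up in 5 of 39 (12.8%) and down in 3 (7.69%), near the shares of all genes. Without pLKO replicate 3 the rises in these lists came to 0, 2, 1 and 2 and the falls to 5, 7, 1 and 1, and such small counts also moved with the other libraries. HDAC5, a class IIa deacetylase, rose from 551, 790 and 609 to 1075, 1200 and 1458 (log2 fold change 0.94, SE 0.17, adjusted p 0.00526 by limma), while HDAC1 (0.10), HDAC2 (0.15) and the histone chaperone gene RBBP4 (-0.06) were not called. Under correction for transcript length the falls among repressor complexes came to 1, HDAC1 to -0.03 and RBBP4 to 0.10. In glycolysis and lactate transport 3 of 29 (10.3%) were called up (1 without pLKO replicate 3 or shRNF5 replicate 3) and 6 (20.7%) down, and PFKM, a phosphofructokinase, fell from 397, 343 and 339 to 132, 148 and 114 (-1.45, SE 0.17). Of 21 histone genes 8 (38.1%) were called up and 1 down. HIST1H1C, a linker histone, rose from 187, 193 and 142 to 600, 374 and 947 (1.79).

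**Figure D4:**
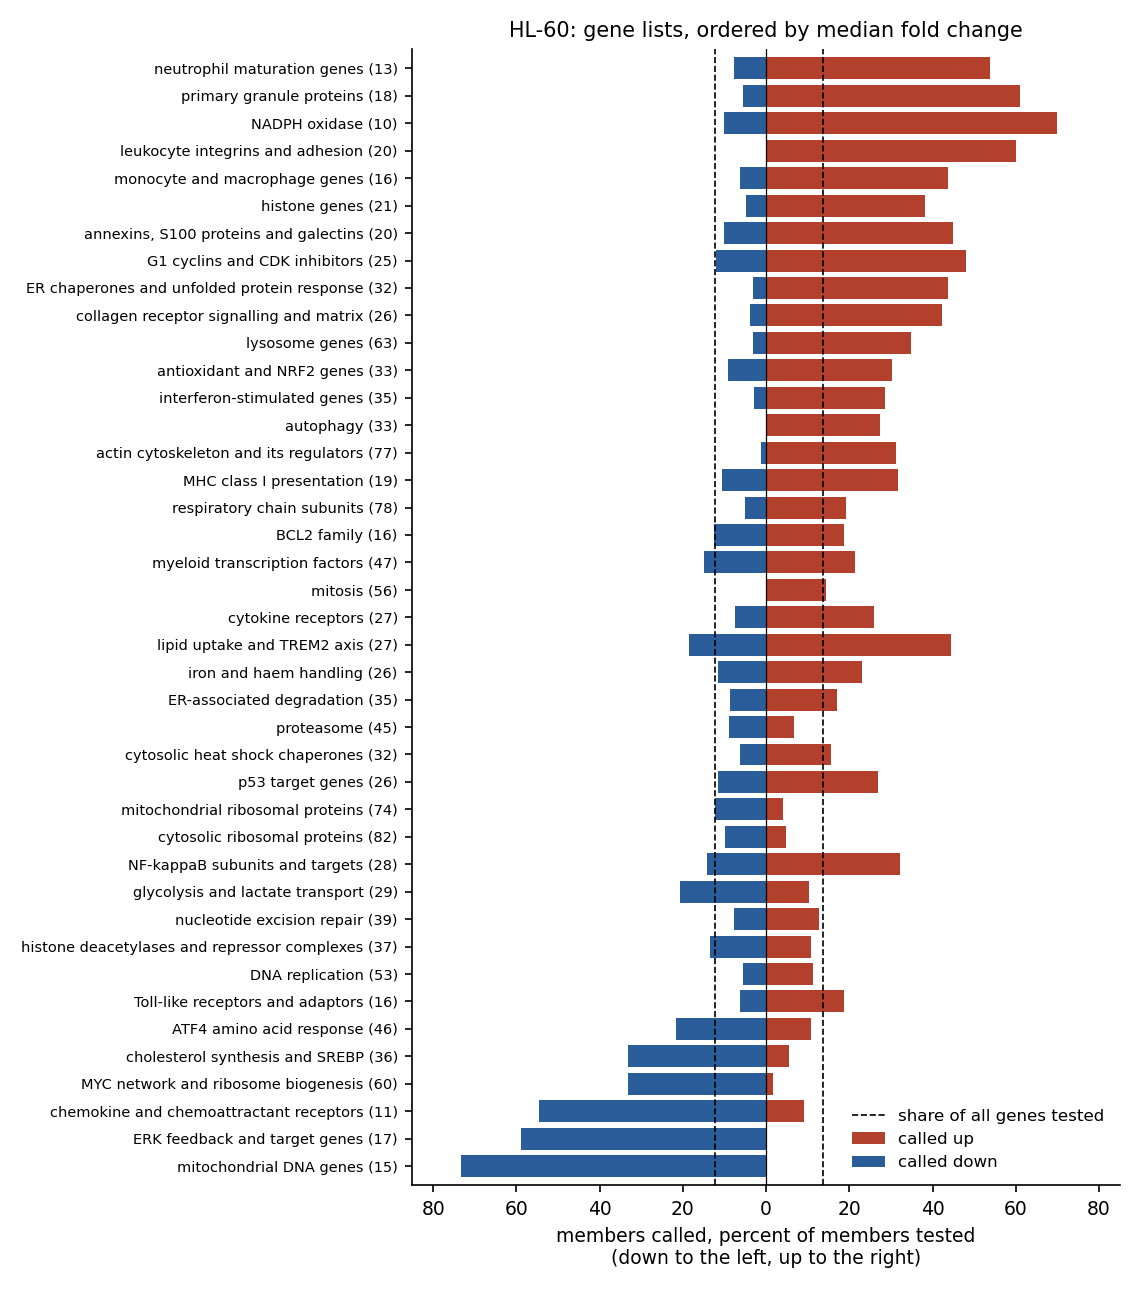
Share of tested members called up (red, to the right) and down (blue, to the left) in percent, for the lists with at least 10 tested members, ordered by their median log2 fold change and with the number tested in brackets. Dashed lines mark the shares over all genes tested, 13.6% up and 12.3% down.

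Markers of the promyelocyte were checked against the label of the line. All 9 promyelocyte markers were above 0. Their summed value ran from 121694 to 152040 in the pLKO libraries and from 174116 to 266517 in the shRNF5 libraries. Most of each sum was MPO alone, at 125950, 130372 and 105563 in pLKO and 205517, 141317 and 207430 in shRNF5. Of the 9 markers 7 were called up, and CD33 and CLEC5A were called down. Both falls lost their call without pLKO replicate 1 or shRNF5 replicate 2, and 1 of them without shRNF5 replicate 3. The rises came to 6 without pLKO replicate 1. They came to 5 without pLKO replicate 2, pLKO replicate 3, shRNF5 replicate 1 or shRNF5 replicate 3. Of markers of other lineages only EPOR, CD79A, IGLL1, NKG7, KRT8, PRG2, CLC and MS4A2 were above 0, and all megakaryocyte, fibroblast and dendritic cell markers are listed at 0. IGLL1, the surrogate light chain of B cell precursors, rose from 162, 612 and 287 to 749, 1103 and 907 (log2 fold change 1.57, SE 0.37, adjusted p 0.0165 by limma).

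Fold changes followed transcript length in part. In the 5 bins of genes from the shortest to the longest transcripts the share called up was 16.1%, 17.4%, 15.5%, 11% and 8.3%, and the share called down 7.11%, 7.68%, 11.5%, 14.4% and 21.3%. After each library was corrected for length, 1431 of the genes called up and 1317 of those called down kept their call. The mitochondrial DNA list then held 13 falls and the ribosome biogenesis and MYC list 28, the primary granule list 11 rises and the actin list 22.

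The HL-60 response was set beside those of MOLM-13 (2 shRNF5 and 3 pLKO libraries) and U937 (2 and 2). The values were normalized by line, and both comparisons share the HL-60 libraries. Of 11072 genes above 0 in the 3 lines, 681 differed from both other lines in the same direction by limma's interaction contrasts. The response lay above both in 396 (3.58%) and below both in 285 (2.57%). Of the genes called up in HL-60 and above 0 in all lines 330 of 1528 (21.6%) also differed from both, and of those called down 226 of 1287 (17.6%). The count of 681 came to 225 without pLKO replicate 1, 282 without pLKO replicate 3 and 165 without shRNF5 replicate 3.

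Of the granule genes above 0 in all 3 lines 5 of 16 responded more in HL-60 than in both other lines, 3 without shRNF5 replicate 3. The log2 fold change of ELANE was 1.73 in HL-60, 0.04 in MOLM-13 and -1.06 in U937, and that of CTSG was 1.99, -0.09 and -1.18. In MOLM-13 ELANE was at 16453, 15332 and 14000 in pLKO and 15794 and 15571 in shRNF5, and in U937 at 9166 and 11149 against 5780 and 4077. PRTN3 (1.16, -0.04 and -1.04), AZU1 (1.05, 0.14 and -2.44) and MPO (0.60, -0.18 and 0.65) did not pass against both lines. In U937 MPO was low, at 42 and 32 in pLKO and 35 and 96 in shRNF5, with overlapping groups. LGALS1 (2.27, 0.83 and 0.55), S100A4 (2.0, -0.31 and 0.05), CHI3L1 (3.0, 0.29 and 0.83) and CYBA (1.18, -0.13 and 0.03) passed.

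The lists of mitochondrial DNA genes and of ERK feedback and target genes were written after the HL-60 falls were seen, so they are set beside the other lines as a description, with no test. The median log2 fold change of the mitochondrial DNA genes was -1.32 in HL-60, 0.43 in MOLM-13 and 1.14 in U937, and that of the 15 ERK genes above 0 in all lines was -0.58, 0.19 and 1.53. MYC passed the interaction contrasts, at -1.28 in HL-60, 0.01 in MOLM-13 and 0.40 in U937, though not without shRNF5 replicate 3, and TRIB1 passed (-0.67, 0.80 and 2.05). For ribosome biogenesis and the MYC network the medians were -0.32, -0.09 and 0.58, and 3 of 60 genes passed below and 1 above, with 0 below without shRNF5 replicate 3, 1 without pLKO replicate 1 and 5 without pLKO replicate 2 or shRNF5 replicate 1. Of the genes in the plot of the 3 lines MT-CYB did not pass without pLKO replicate 1, pLKO replicate 3 or shRNF5 replicate 3. FTH1 (1.79, 0.84 and 1.32), CDKN2D (1.81, 1.14 and 0.93) and HMOX1 (3.28, 1.06 and 4.32) did not pass, nor did RNF5 itself (-3.25, -3.77 and -3.64).

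**Figure D5:**
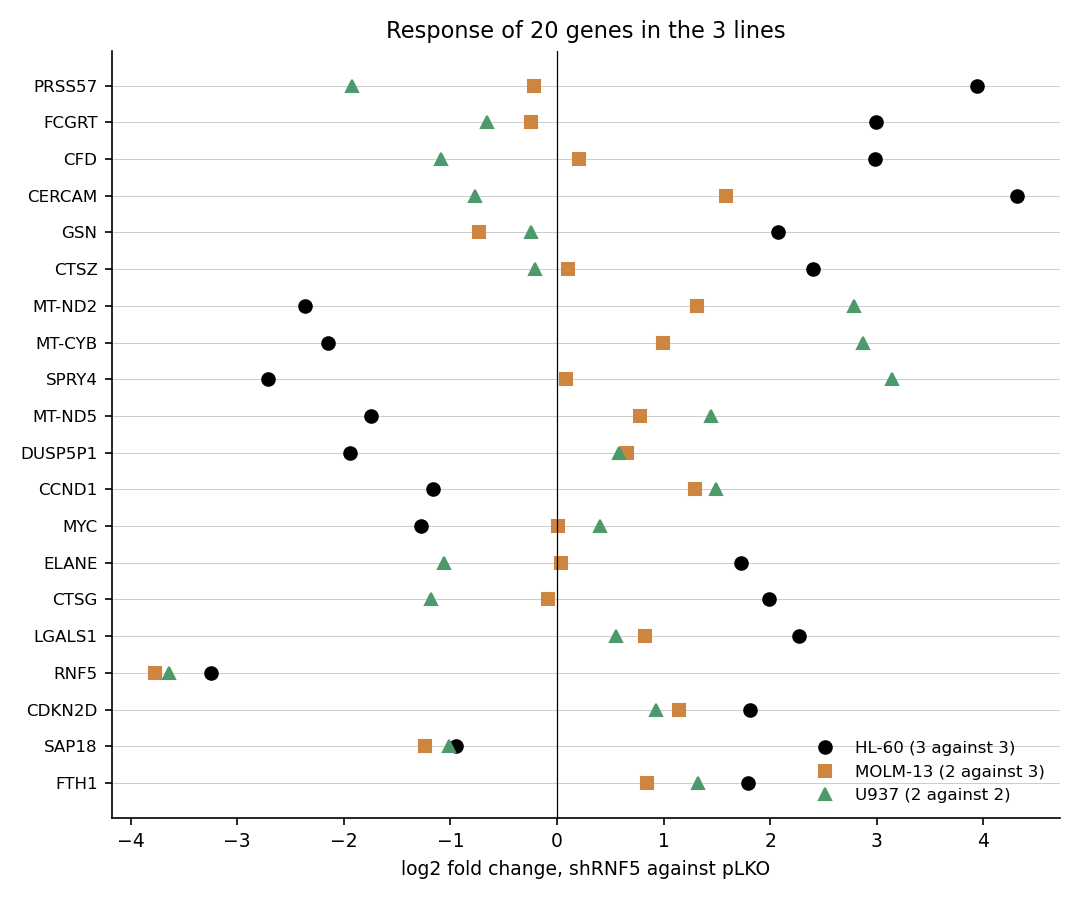
Log2 fold change of shRNF5 against pLKO (x axis) for 20 genes in HL-60 (black circles), MOLM-13 (orange squares) and U937 (green triangles), each from its own group means. The first 16 genes differed from both other lines in HL-60, and RNF5, CDKN2D, SAP18 and FTH1 did not.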

How the data were processed

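Polyadenylated RNA of HL-60 cells carrying pLKO or shRNF5 was sequenced as single 75-base reads. Per the methods and the submitters' processing notes, the authors trimmed reads with CUTADAPT 1.1, aligned them to hg19 with STAR 2.5.2a, counted them per gene with featureCounts (Subread 1.50) and normalized by line with edgeR 3.34.0 through SARTools 1.2.0. The deposited values are a score, because the authors divided counts by library factors and kept whole numbers, and genes that failed their filter are listed at 0. Strand use in counting is not given in the sources used here.

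The 6 HL-60 libraries took their construct and replicate number from the sample labels. limma 3.58.1 in R 4.3.3 was fitted to log2(value + 1), with the empirical Bayes prior following mean expression, over all 12570 genes above 0 in any of them, with Benjamini-Hochberg adjustment. Calls needed an adjusted p below 0.1 and a log2 fold change larger than 0.4 in size. Line differences came from interaction contrasts in 1 fit over 15 libraries, called where both had an adjusted p under 0.1 and the same sign. Groups were called separate where all shRNF5 libraries lay on one side of all pLKO libraries. The procedure was tested on simulated data with 200 changed genes and a fixed spread. It recovered 40.9% of changes of 0.6 on the log2 scale, 92.5% of those of 1 and 100% of those of 2. Of its calls 11.9% were false. Library depth was inferred from which low whole numbers the scaling could reach. Counting intervals were left out because the scaled values are not counts. All libraries differed from each other.

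The gene lists and comparisons were chosen with earlier results of these data known, and the ERK and mitochondrial DNA lists and the runs of neighbouring genes after the values were seen. Genes were named as the 12 largest rises and falls among called genes with separate groups and a mean of at least 100 in the higher group, the 8 called genes with the largest change of mean in each direction, RNF5, genes the study itself named, up to 4 called members per list and direction with the largest fold change, members that define a list, and the 6 largest line differences in each direction. Other list members were named after their values were seen, and a few genes that the rule names are not reported here. Coordinates and transcript lengths are from GENCODE on GRCh37, and promoter sequences from RefSeq on GRCh38.p14, matched by symbol for 8646 tested genes. Alternatives changed the pseudocount, the filter, both thresholds, the scaling, the variance prior, library weights, the libraries in the fit, a replicate block and a correction for transcript length, and left out each library in turn.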

Additional observations from a re-analysis of the deposited data

Results flagged for a closer look

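The response in HL-60 differed from both other lines by a test of the difference itself (limma interaction contrasts, adjusted p under 0.1 against each line) in 681 genes, of which the 6 with the largest smaller difference in each direction are given here. Above both lines lay 4 genes of secretory and lysosomal products or adhesion and 2 others. The granule protease PRSS57 exceeded its log2 fold change in MOLM-13 by 4.15 and that in U937 by 5.86. FCGRT, the neonatal Fc receptor, differed by 3.24 and 3.65, the complement protease CFD by 2.78 and 4.08, the adhesion protein CERCAM by 2.73 and 5.09, gelsolin (GSN) by 2.8 and 2.31, and cathepsin Z (CTSZ) by 2.3 and 2.61.

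Below both lines lay 3 mitochondrial DNA genes. MT-ND2 differed by -3.67 from MOLM-13 and by -5.15 from U937, MT-CYB by -3.15 and -5.02, and MT-ND5 by -2.53 and -3.19. Values in the other lines were spread widely within groups. In U937 MT-ND2 was at 11 and 51 in pLKO and 78 and 374 in shRNF5, and MT-CYB at 7 and 19 against 46 and 181. In the pLKO libraries of MOLM-13 MT-ND2 was at 91, 242 and 343. The ERK feedback inhibitor SPRY4 differed by -2.79 and -5.85, the pseudogene DUSP5P1 by -2.59 and -2.52, and cyclin D1 (CCND1) by -2.46 and -2.66. Starting levels were unequal: PRSS57 was at 5747, 5353 and 3571 in the pLKO libraries of MOLM-13 and at 9, 23 and 6 in those of HL-60, and SPRY4 at 6 and 7 in those of U937 and at 193, 249 and 184 in those of HL-60. The part of the starting level in these differences was not tested.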

How the results depend on the processing

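The 3251 calls in HL-60 ranged from 1970 to 3413 when 1 library was left out (rises 1055 to 1767, falls 864 to 1646). At an absolute log2 fold change over 1 they numbered 819, with 463 rises and 356 falls. With the replicate block they numbered 3580. Same-numbered deviations correlated at 0.505, 0.156 and -0.109 for replicates 1, 2 and 3, which leaves unsettled whether the replicate numbers pair the libraries. The block changed no call among the 270 genes followed through the alternatives. Of these 266 were called, so most genes reported as not called were not among them. RNF5 stayed called, between -3.82 and -2.91 with 1 library left out. Lists with more rises than falls numbered 30 of 42, and 24 to 32 over the alternatives. The 681 line differences fell to 256 at an adjusted p under 0.05 and ran from 165 to 768 with 1 HL-60 library left out. For the 270 genes followed, 4349 of 4823 values under an alternative kept direction and side, 471 lost the call, 1 gained it and 2 reversed. The reversed values, under correction for transcript length, were HDAC1 at -0.03 and RBBP4 at 0.1, neither called in any case, and the cause was not tested. Of these genes 122 kept their side in every alternative. With a mean of at least 50 required the calls numbered 2851.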

Other observations

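Neighbouring genes called in the same direction were listed after the values were seen, as a description. Among 12278 placed genes there were 13 runs of at least 4 consecutive tested genes, 8 of rises and 5 of falls. The longest held 9 rising genes on chromosome 11 between 67033944 and 67202872 (GRCh37), ADRBK1, ANKRD13D, SSH3, RAD9A, POLD4, CLCF1, PPP1CA, TBC1D10C and RPS6KB2. The strongest of these were POLD4, a DNA polymerase delta subunit (log2 fold change 1.65), and SSH3, a cofilin phosphatase (1.27). On chromosome 1, S100A9, S100A8, S100A6 and S100A4 rose side by side between 153330330 and 153522612, and on chromosome 16 the homeobox genes IRX3 (0.70) and IRX5 (0.69) rose with CRNDE (0.95) and the gelatinase gene MMP2 (1.91). SIGLEC12, SIGLEC6 and SIGLEC5, sialic acid receptors of myeloid cells, fell together with ZNF175 on chromosome 19 (log2 fold changes -1.69, -2.05 and -0.82). Overlapping genes within such runs may share reads.

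By gene type, 1566 of 10857 protein-coding genes (14.4%) were called up and 1389 (12.8%) down, against 87 (11.3%) and 65 (8.46%) of 768 long noncoding RNAs. Processed pseudogenes were called up in 11 (2.98%) and down in 33 (8.94%) of 369. The abundant noncoding RNA MALAT1 was at 22744, 12218 and 14436 in pLKO and at 32628, 36219 and 78247 in shRNF5 (log2 fold change 1.51, SE 0.32, adjusted p 0.0103 by limma), with separate groups and its highest value in shRNF5 replicate 3. TUBB, a beta-tubulin, fell from 28792, 32084 and 29511 to 20946, 18489 and 16880 (-0.69, SE 0.14), and the nuclear import gene IPO7 from 10857, 11289 and 12540 to 5285, 6462 and 3866 (-1.18, SE 0.18).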
